A study of Mus musculus with 6 samples.

Results

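The 10 genes described here encode the factors that copy DNA methylation at replication, set it anew or help to remove it. They were taken by symbol from a list of Uhrf1, Uhrf2, Dnmt1, Dnmt3a, Dnmt3b, Tet1, Tet2, Tet3, Hells and Mbd4, and each matched 1 of the 51912 gene IDs in the deposited table. RNA was sequenced in bulk from mouse bladder tumor organoids of the strain C57BL/6, which are small cultures grown in 3 dimensions from tumor cells. In 3 libraries the organoids had received SRT1720, a compound known as an activator of SIRT1, an NAD-dependent deacetylase, and in the other 3, labelled Vehicle, its vehicle. The labels used here give no dose, duration, animal age or way in which the tumors arose. They do not say whether replicates are separate cultures, so every p-value reflects only how these samples vary, in part perhaps for technical reasons.

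Methylation of cytosine in CpG dinucleotides is lost by dilution at each round of DNA replication unless it is copied to the new strand. UHRF1 recognises CpG sites that are methylated on the parental strand only and recruits the methyltransferase DNMT1 to them, and the chromatin remodeler HELLS opens nucleosomal DNA for this step. DNMT3A and DNMT3B methylate unmodified sites, the TET dioxygenases oxidise the methyl group, and MBD4 is a glycosylase that removes the thymine left when a methylated cytosine loses its amino group. These are mRNA levels, so they show neither the amount of each protein nor DNA methylation itself.

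Among the 10 genes, the maintenance factors Uhrf1, Dnmt1 and Hells were higher in every SRT1720 library than in any Vehicle library, and Uhrf2 was lower in every SRT1720 library. Of the 9287 genes tested, 12.1% were higher in this way and 7.75% lower. Mean levels with SRT1720 were 1.72 times those with vehicle for Uhrf1, 1.32 times for Dnmt1, 1.60 times for Hells and 0.594 times for Uhrf2. The groups overlapped for the other 6 genes. In bulk RNA, a larger share of cells that express a gene and more of its RNA in each cell cannot be told apart. None of these differences passed the test over all genes (limma on log2(TPM + 1), Benjamini-Hochberg adjusted p of 0.05), nor did any of the 9287 genes tested, so 0% is the background of this call. Limma gave 1153 genes at an unadjusted p under 0.05 (12.4%), 523 when SRT1720 2 was left out, 682 without both SRT1720 3 and Vehicle 3, and 2056 with library weights. The voom form of limma on recovered reads gave 0 adjusted calls and 1119 at an unadjusted p under 0.05.

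The libraries also differed within each group. Krt5, a keratin of basal epithelium, was low in SRT1720 1 (16.4 TPM) and Vehicle 2 (9.61 TPM) and at 425 to 1120 TPM elsewhere. For chromosome 3 the median log2 deviation of its genes from their group means was -0.39 in SRT1720 3 and -0.41 in Vehicle 3, and 0.13 to 0.26 elsewhere. Of the urothelial markers, 6 of 6 basal genes and 5 of 10 luminal genes reached a mean of 1 TPM, and the luminal list summed to 94.2 to 347 TPM in SRT1720 libraries and 77.2 to 227 TPM in Vehicle libraries. All 8 endothelial markers stayed below 1 TPM in each library. Fibroblast markers summed to 0.0708 to 2.83 TPM in SRT1720 libraries and 0.225 to 4.20 TPM in Vehicle libraries, and smooth muscle markers to 2.35 to 2.88 TPM in SRT1720 libraries and 2.59 to 7.15 TPM in Vehicle libraries. Leukocyte markers summed to 1.04 to 12.2 TPM in SRT1720 libraries and 2.08 to 16.6 TPM in Vehicle libraries. Most of the higher sums was Lyz2, a macrophage lysozyme, which was at 10.5 TPM in SRT1720 2 and 14.3 TPM in Vehicle 1. It was listed at 0 in the other 4 libraries. The recovered reads of Lyz2, 26 and 37, are the smallest whole numbers in the ratio of these values. They rest on that ratio alone, so they may understate its reads. The fibroblast sums were also highest in SRT1720 2 and Vehicle 1 within their groups. The pan-leukocyte gene Ptprc did not exceed 0.0129 TPM in any library. Among the markers of other cell types past the filter, the groups did not overlap for Cd68, a lysosomal gene also used as a macrophage marker, at 0.730 to 1.31 TPM in SRT1720 libraries and 1.45 to 3.09 TPM in Vehicle libraries. Its part in the results below was not tested.

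Uhrf1 (ENSMUSG00000001228, chromosome 17 from 56303321 to 56323486 on GRCm38) was at 17.1, 20.1 and 23.1 TPM in SRT1720 1, 2 and 3, against 11.9, 11.3 and 12.0 TPM in Vehicle 1, 2 and 3. The Vehicle libraries lay within 1 TPM of each other, and the lowest SRT1720 library stood above all of them. The group means were 20.1 ± 2.99 TPM in SRT1720 libraries and 11.7 ± 0.37 TPM in Vehicle libraries (SD, n = 3 each). The log2 fold change, SRT1720 minus Vehicle, was 0.72 (SE 0.17, 95% interval 0.32 to 1.13), with a limma unadjusted p of 0.00419 and an adjusted p of 0.284 (0.0767 to 0.834 under the alternatives tried). An exact two-sided permutation test gave p = 0.1, the smallest that 3 libraries against 3 allow. All 3 SRT1720 libraries lay above all 3 Vehicle libraries in 12.1% of the genes tested and below them in 7.75%, in all 19.9%. Of the 10 genes, 6 passed the filter on low values (a mean of at least 1 TPM); 3 of these were higher without overlap and 1 was lower. At an unadjusted p under 0.05, 2 of the 6 were higher, against a background of 7.86%, and 1 was lower, against 4.55%. These are 6 genes that belong to 1 process, so the counts are a description.

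Uhrf1 has a near copy elsewhere in the genome. The processed pseudogene Gm5648, a gene outside the list that was examined after its sequence match was seen, matches the longest coding Uhrf1 transcript at 98.3% identity over 1590 aligned bases. Gm5648 was at 3.83, 4.56 and 4.26 TPM in SRT1720 1, 2 and 3, against 2.53, 2.37 and 2.55 TPM in Vehicle 1, 2 and 3. The ratio of its group means was 1.70, close to the 1.72 of Uhrf1. Whole reads recovered from the values numbered 5147, 6323 and 7083 for Uhrf1 in SRT1720 1, 2 and 3, against 3892, 2967 and 3439 in Vehicle 1, 2 and 3. Reads assigned to Gm5648 came to 5.25% to 6.45% of those of Uhrf1 with SRT1720 and 5.97% to 6.09% with vehicle. With both sets of reads added together and scaled to the recovered reads of each library, the log2 fold change of Uhrf1 was 0.76. Uhrf1 alone also had 0.76 by voom on recovered reads. Since the share of Gm5648 reads was similar in all libraries, adding them could hardly move the value. The sum is therefore no check on how reads were divided between Uhrf1 and Gm5648. The value of 0.72 given above is on the scale of log2(TPM + 1).

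Dnmt1 (ENSMUSG00000004099), which encodes the methyltransferase that UHRF1 recruits, lies on chromosome 9 from 20907209 to 20959888. It was at 16.4, 18.9 and 17.7 TPM in SRT1720 1, 2 and 3, against 13.0, 12.3 and 14.9 TPM in Vehicle 1, 2 and 3. The groups did not overlap, and Vehicle 3 came closest to the SRT1720 libraries. The means were 17.7 ± 1.24 TPM in SRT1720 libraries and 13.4 ± 1.36 TPM in Vehicle libraries (SD, n = 3 each). Its log2 fold change was 0.37 (SE 0.16, 95% interval -0.01 to 0.75), with a limma unadjusted p of 0.0535 and an adjusted p of 0.406 (0.134 to 0.847 under the alternatives).

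Hells (ENSMUSG00000025001), the remodeler gene, lies on chromosome 19 from 38930915 to 38971051. It was at 8.71, 7.50 and 7.10 TPM in SRT1720 1, 2 and 3, against 3.92, 5.95 and 4.73 TPM in Vehicle 1, 2 and 3. All SRT1720 libraries were above 7 TPM and all Vehicle libraries below 6 TPM. The means were 7.77 ± 0.84 TPM in SRT1720 libraries and 4.87 ± 1.02 TPM in Vehicle libraries (SD, n = 3 each). The log2 fold change was 0.59 (SE 0.18, 95% interval 0.16 to 1.02), with a limma unadjusted p of 0.0147 and an adjusted p of 0.331 (0.101 to 0.834 under the alternatives).

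Uhrf2 (ENSMUSG00000024817) encodes a paralog of UHRF1 that binds hydroxymethylated DNA and does not replace UHRF1 in maintaining methylation. The gene lies on chromosome 19 from 30030513 to 30093722, on the same chromosome as Hells. It was at 2.30, 2.57 and 2.50 TPM in SRT1720 1, 2 and 3, against 4.67, 4.14 and 3.59 TPM in Vehicle 1, 2 and 3. Here the SRT1720 libraries were close together and all lay below the Vehicle libraries. The means were 2.46 ± 0.14 TPM in SRT1720 libraries and 4.13 ± 0.54 TPM in Vehicle libraries (SD, n = 3 each). The log2 fold change was -0.57 (SE 0.14, 95% interval -0.90 to -0.23), with a limma unadjusted p of 0.00525 and an adjusted p of 0.289 (0.0880 to 0.834 under the alternatives). Uhrf1 and Uhrf2 thus stood on opposite sides in the same libraries, and the median log2 fold change of the tested genes was 0.04 on chromosome 19 and -0.01 on chromosome 17.

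**Figure D1:**
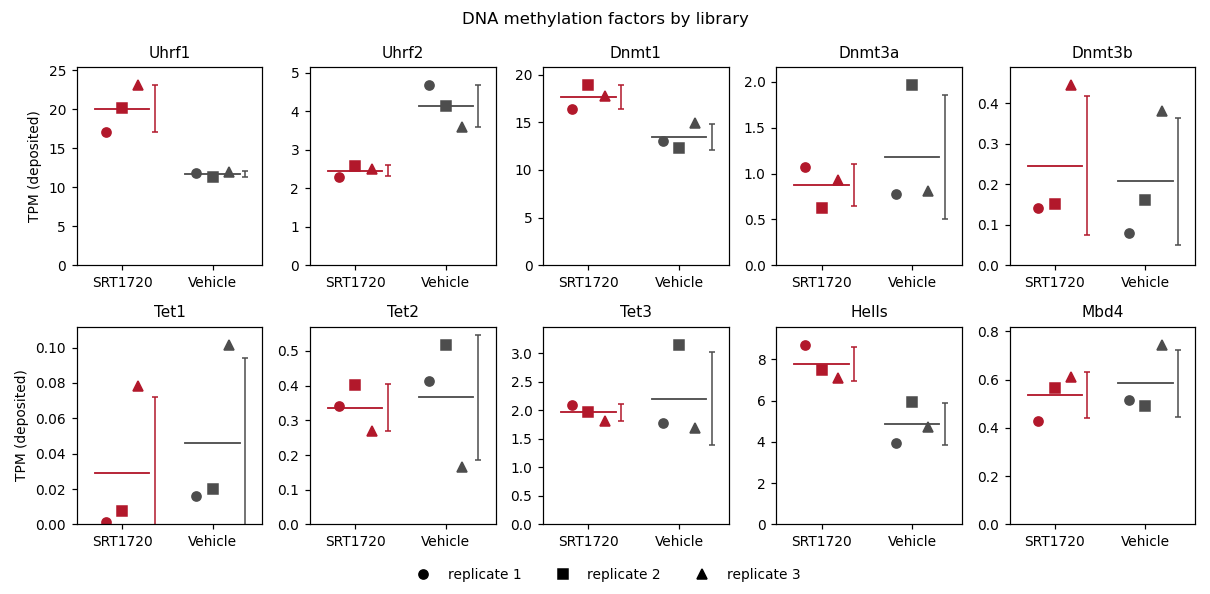
Level of each of the 10 genes in TPM (y axis, from 0, its own scale in each panel) in the 3 SRT1720 and 3 Vehicle libraries, with a line at the group mean and a bar of 1 SD, cut at 0 for Tet1. Uhrf1, Dnmt1 and Hells are higher in all SRT1720 libraries, Uhrf2 is lower in all of them, and the groups overlap for the other 6 genes.

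Values of libraries that resemble each other were also set side by side. Between the libraries low in Krt5, Uhrf1 was at 17.1 TPM in SRT1720 1 and 11.3 TPM in Vehicle 2, and Uhrf2 at 2.30 TPM in SRT1720 1 and 4.14 TPM in Vehicle 2. Between the libraries low for chromosome 3, Uhrf1 was at 23.1 TPM in SRT1720 3 and 12.0 TPM in Vehicle 3, and Uhrf2 at 2.50 TPM in SRT1720 3 and 3.59 TPM in Vehicle 3. In both pairs Uhrf1 was higher and Uhrf2 lower in the SRT1720 library. The groups did not overlap for either gene, so any pair of an SRT1720 and a Vehicle library had to show these directions. The pairs therefore give sizes and no further check. With SRT1720 1 and Vehicle 2 left out the log2 fold changes were 0.80 for Uhrf1 and -0.53 for Uhrf2, and with SRT1720 3 and Vehicle 3 left out they were 0.64 and -0.65. The limma adjusted p lay between 0.430 and 0.661 in these fits.

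**Figure D2:**
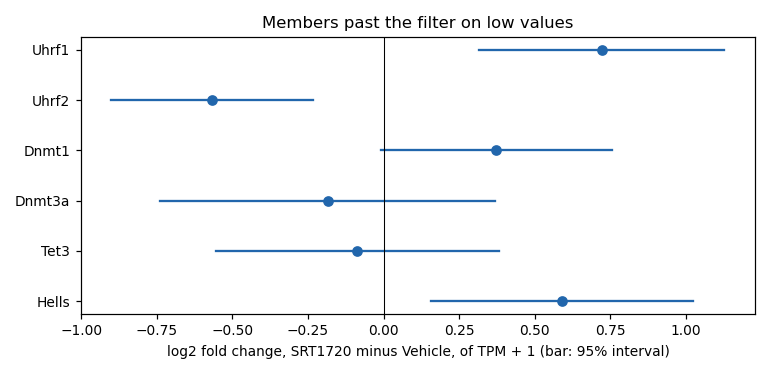
Log2 fold change of TPM + 1, SRT1720 minus Vehicle (x axis), for the 6 genes past the filter on low values, with bars for the 95% interval from limma before adjustment for many genes. The intervals of Uhrf1 and Hells lie above 0, that of Uhrf2 below 0, and those of Dnmt1, Dnmt3a and Tet3 include 0.

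The start regions of Uhrf1, Uhrf2, Dnmt1 and Hells are shown because they belong to the 4 genes whose groups did not overlap. They are RefSeq windows on GRCm38.p6 of 250 bases before to 50 bases after a start, written 5′ to 3′ on the strand of the gene. Where a gene has several annotated starts, Uhrf1 with 2 and Dnmt1 with 3, the window with the most CpG dinucleotides is printed. Capitals mark each match to the E2F motif, the binding letters of the factors that switch on S phase genes, searched as TTTCCCGC, TTTCGCGC, TTTGCCGC and TTTGGCGC on both strands.
Uhrf1 (chr17:56304063-56304362, plus strand): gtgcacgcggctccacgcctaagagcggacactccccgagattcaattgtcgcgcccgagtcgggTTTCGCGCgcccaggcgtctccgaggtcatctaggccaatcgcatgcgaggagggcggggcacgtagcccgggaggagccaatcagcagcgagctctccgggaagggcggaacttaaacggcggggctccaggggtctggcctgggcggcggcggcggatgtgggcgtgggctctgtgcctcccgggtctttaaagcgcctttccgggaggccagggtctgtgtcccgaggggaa
Uhrf2 (chr19:30030263-30030562, plus strand): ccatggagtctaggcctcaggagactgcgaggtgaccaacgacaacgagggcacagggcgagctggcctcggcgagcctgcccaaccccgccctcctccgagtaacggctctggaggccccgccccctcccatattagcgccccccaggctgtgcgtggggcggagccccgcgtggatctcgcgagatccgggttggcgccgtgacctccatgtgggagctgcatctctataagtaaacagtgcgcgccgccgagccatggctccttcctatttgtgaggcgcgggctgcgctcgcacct
Dnmt1 (chr9:20952574-20952873, minus strand): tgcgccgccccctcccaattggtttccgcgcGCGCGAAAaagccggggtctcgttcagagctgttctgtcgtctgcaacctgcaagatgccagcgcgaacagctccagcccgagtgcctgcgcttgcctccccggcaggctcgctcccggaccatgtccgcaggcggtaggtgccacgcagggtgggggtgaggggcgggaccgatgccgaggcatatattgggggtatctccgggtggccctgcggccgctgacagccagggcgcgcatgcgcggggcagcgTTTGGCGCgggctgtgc
Hells (chr19:38930740-38931039, plus strand): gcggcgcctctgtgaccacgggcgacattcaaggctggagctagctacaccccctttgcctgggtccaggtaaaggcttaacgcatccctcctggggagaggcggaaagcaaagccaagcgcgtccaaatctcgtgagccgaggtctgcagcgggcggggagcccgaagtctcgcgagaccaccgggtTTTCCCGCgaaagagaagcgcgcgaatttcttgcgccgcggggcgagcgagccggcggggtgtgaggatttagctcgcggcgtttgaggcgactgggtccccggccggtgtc

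These E2F letters were present in 2.26% of the 32851 RefSeq windows of this length, a share not restricted to windows rich in CpG. Among the 10 genes they were found for Uhrf1, Dnmt1 and Hells, with 1, 2 and 1 matches, and in no window of the other 7 genes. Some of these genes have several windows, so this count of genes is not directly comparable with the share of windows. In the Uhrf1 window the match TTTCGCGC had its first base at position -185 from the start, and in the Hells window TTTCCCGC had it at -62. The Dnmt1 window held GCGCGAAA, the other strand of TTTCGCGC, at -219 and TTTGGCGC at 33. Its start, at base 20952623 on the minus strand, lies downstream of another annotated Dnmt1 start at base 20952979. Both matches therefore lie downstream of that start. The other annotated starts, 1 for Uhrf1 and 2 for Dnmt1, held no such letters. The CCAAT box, searched as CCAAT on both strands, was in 37.4% of all windows and occurred in the printed windows of Uhrf1 and Dnmt1, with 2 and 3 matches. The core letters of a hypoxia response element, ACGTG or GCGTG on both strands, were in 43.8% of all windows, with 4 matches in the printed window of Uhrf1, 2 in that of Uhrf2, 1 in that of Dnmt1 and 0 in that of Hells. CpG dinucleotides numbered 33, 28, 33 and 34 in the printed windows of Uhrf1, Uhrf2, Dnmt1 and Hells, more than in 91.4%, 85.8%, 91.4% and 92.3% of all windows. A match describes the letters in the window and shows no binding.

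Dnmt3a (ENSMUSG00000020661, chromosome 12 from 3806007 to 3914443) encodes a methyltransferase of unmodified CpG sites. It was at 1.07, 0.627 and 0.927 TPM in SRT1720 1, 2 and 3, against 0.774, 1.96 and 0.813 TPM in Vehicle 1, 2 and 3. Vehicle 2 held the highest value, and the other 5 libraries overlapped. The log2 fold change was -0.18 (SE 0.23, 95% interval -0.74 to 0.37, limma adjusted p of 0.808), and it turned to 0.056 without Vehicle 2. The antisense gene Dnmt3aos overlaps Dnmt3a, and since strand use in counting is not given, their reads cannot be told apart.

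Dnmt3b (ENSMUSG00000027478, chromosome 2 from 153649450 to 153687730), its paralog, was below the filter at a mean of 1 TPM. It was at 0.142, 0.152 and 0.444 TPM in SRT1720 1, 2 and 3, against 0.0792, 0.160 and 0.382 TPM in Vehicle 1, 2 and 3. Replicate 3 was the highest in both groups, and 42 to 220 recovered reads lay behind each value. Its transcript shares 93.9% identity over 1434 bases with Dnmt3c, a gene known for methylating transposons in the mouse male germline, which had a mean of 0.00146 TPM. Dnmt3bos, an antisense gene, overlaps it.

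The groups overlapped for all 3 TET dioxygenase genes. Tet3 (ENSMUSG00000034832, chromosome 6 from 83362373 to 83459084), at the highest level of the 3, was at 2.10, 1.98 and 1.81 TPM in SRT1720 1, 2 and 3, against 1.78, 3.16 and 1.69 TPM in Vehicle 1, 2 and 3. As for Dnmt3a, the highest library was Vehicle 2. Its log2 fold change was -0.09 (SE 0.20, 95% interval -0.55 to 0.38, limma adjusted p of 0.908), which turned to 0.12 without Vehicle 2 and to 0.082 without both SRT1720 1 and Vehicle 2. Tet2 (ENSMUSG00000040943, chromosome 3 from 133463679 to 133545139) was at 0.342, 0.401 and 0.268 TPM in SRT1720 1, 2 and 3, against 0.414, 0.519 and 0.166 TPM in Vehicle 1, 2 and 3. Its lowest values in each group were in SRT1720 3 and Vehicle 3, the libraries in which chromosome 3 was low. Tet1 (ENSMUSG00000047146, chromosome 10 from 62804570 to 62908996) was at 0.00125, 0.00779 and 0.0785 TPM in SRT1720 1, 2 and 3, against 0.0161, 0.0201 and 0.102 TPM in Vehicle 1, 2 and 3. At 128 and 155 recovered reads, SRT1720 3 and Vehicle 3 also held most of the Tet1 reads, against 2 to 28 in the other 4 libraries. Tet3 and Tet1 overlap other annotated genes on the same strand, and Tet2 and Tet3 on the opposite one, so some of these reads may belong to a neighbour.

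Mbd4 (ENSMUSG00000030322, chromosome 6 from 115840697 to 115853371) was at 0.430, 0.565 and 0.612 TPM in SRT1720 1, 2 and 3, against 0.517, 0.493 and 0.746 TPM in Vehicle 1, 2 and 3. The groups overlapped, and the antisense gene Gm44206 overlaps Mbd4. The 4 genes below the filter, Dnmt3b, Tet1, Tet2 and Mbd4, were fitted only with no filter on low values, where their log2 fold changes of TPM + 1 were 0.045, -0.023, -0.024 and -0.044 and their limma adjusted p 0.945, 0.910, 0.975 and 0.941. On that scale values this far below 1 TPM cannot give a large fold change.

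Ordered by mean level per gene length, the genes with SRT1720 were Uhrf1, Dnmt1, Hells, Uhrf2, Tet3, Dnmt3a, Mbd4, Tet2, Dnmt3b and Tet1, at 20.1 to 0.0292 TPM. With vehicle Dnmt1 stood first and Uhrf1 after it, and the order of the others was the same. Neighbours in this order whose libraries overlapped in level were Uhrf1 and Dnmt1, and Tet2 and Dnmt3b, in the SRT1720 libraries. In the Vehicle libraries they were Hells and Uhrf2, Tet3 and Dnmt3a, Mbd4 and Tet2, Tet2 and Dnmt3b, and Dnmt3b and Tet1. The order between genes rests on gene lengths whose definition is not given in the sources used here.

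Ratios within a library cancel most of its scaling. The ratio of Uhrf1 to Uhrf2 in TPM was 7.43, 7.85 and 9.22 in SRT1720 1, 2 and 3, against 2.54, 2.73 and 3.34 in Vehicle 1, 2 and 3. Since Uhrf1 was higher and Uhrf2 lower in every SRT1720 library, this ratio had to separate the groups. Every SRT1720 library was above every Vehicle library, by a difference of 1.29 in the mean log2 ratio of TPM + 1. That mean was 2.60 ± 0.17 with SRT1720 and 1.31 ± 0.17 with vehicle (SD, n = 3 each). The ratio of Uhrf1 to Dnmt1 was 1.04, 1.07 and 1.30 in SRT1720 1, 2 and 3, against 0.911, 0.916 and 0.802 in Vehicle 1, 2 and 3. Thus Uhrf1 was above Dnmt1 in all SRT1720 libraries and below it in all Vehicle libraries. The difference in mean log2 ratio was 0.35. Each of these differences reached the smallest exact two-sided permutation p of 0.1 (adjusted p = 0.2 over the 4 ratios examined). For Uhrf1 to Uhrf2 this p adds nothing to the separation of the genes themselves. The ratio of Dnmt3b to Dnmt3a overlapped between groups, at 0.133, 0.242 and 0.479 in SRT1720 1, 2 and 3, against 0.102, 0.0819 and 0.470 in Vehicle 1, 2 and 3 (exact permutation p = 0.7, adjusted p = 0.7). Its difference in mean log2 ratio, 0.23, turned to -0.036 without Vehicle 2.

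**Figure D3:**
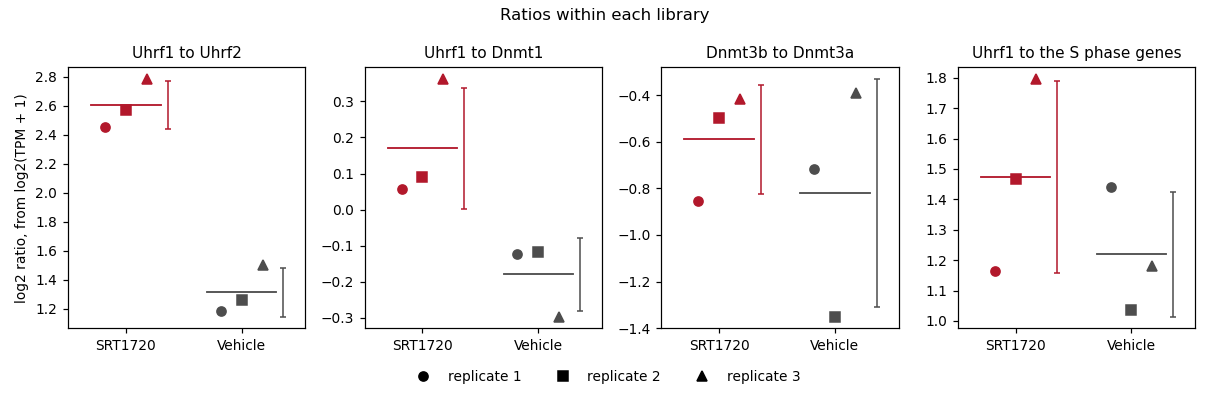
Log2 ratio of TPM + 1 within each library (y axis, not from 0) for the 4 ratios, with a line at the group mean and a bar of 1 SD over 3 libraries. The groups separate for Uhrf1 to Uhrf2 and for Uhrf1 to Dnmt1 and overlap for Dnmt3b to Dnmt3a and for Uhrf1 to the mean of the S phase genes.

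Uhrf1, Dnmt1 and Hells, whose printed windows hold E2F letters, are expressed mainly in dividing cells around S phase, so a list of 28 S phase genes was set beside them. All 26 of its genes past the filter had log2 fold changes above 0, against 54.8% of the genes tested, with a median of 0.46 against 0.04 over all genes, and 16 (61.5%) were higher with SRT1720 without overlap, against 12.1% of all genes tested. None of the 26 passed the adjusted test. Pcna, the sliding clamp to which DNMT1 and UHRF1 partners bind at the replication fork, was at 33.9 ± 3.52 TPM in SRT1720 libraries and 22.5 ± 4.56 TPM in Vehicle libraries. Rrm2, a subunit of ribonucleotide reductase, was at 41.2 ± 6.87 TPM in SRT1720 libraries and 15.2 ± 0.91 TPM in Vehicle libraries, and the cyclin genes Ccne1 and Ccne2 at 6.41 ± 0.56 and 2.40 ± 0.40 TPM in SRT1720 libraries, against 3.26 ± 0.82 and 1.06 ± 0.36 TPM in Vehicle libraries. Uhrf1 would stand after 3 of these 26 genes by log2 fold change, Hells after 7 and Dnmt1 after 19. Relative to the mean log2 level of the S phase genes, Uhrf1 was at 1.16, 1.47 and 1.80 in SRT1720 1, 2 and 3, against 1.44, 1.04 and 1.18 in Vehicle 1, 2 and 3 (log2 of TPM + 1). These values overlapped, with a difference of 0.26 (exact permutation p = 0.3, adjusted p = 0.4), which lay between 0.096 and 0.41 when single libraries were left out. Without Fen1, a gene of the list that was near 0 in every library, it was 0.24, an alternative chosen after seeing the data. Whether the differences of the S phase genes and of the maintenance factors share a cause was not tested.

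**Figure D4:**
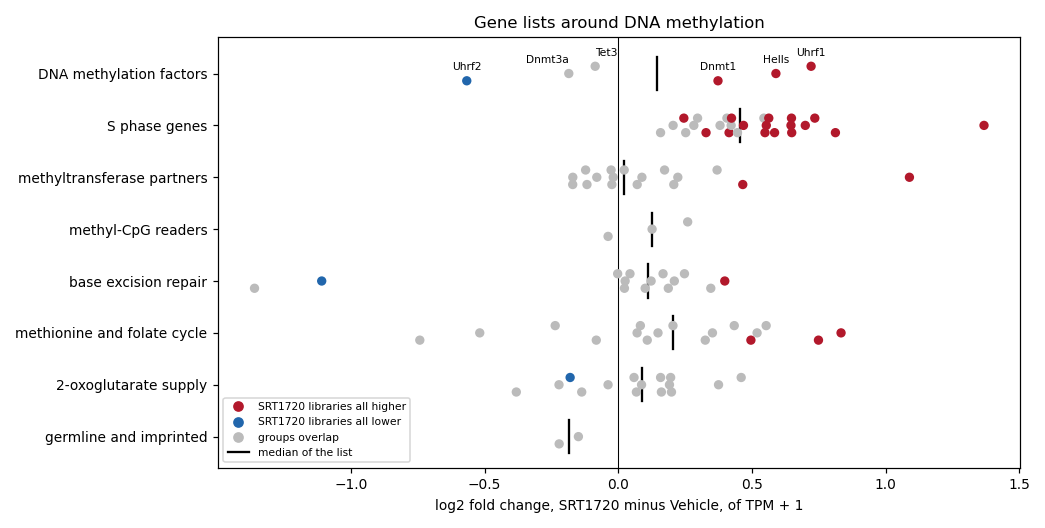
Log2 fold change of TPM + 1, SRT1720 minus Vehicle (x axis), of each gene past the filter in the 10-gene set and in 7 lists of related genes (rows), coloured by whether the groups overlap, with a line at the median of the list. All 26 S phase genes lie above 0, and the other lists spread on both sides of 0 except the last, which holds 2 genes.

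Among the partners and regulators of the methyltransferases, 17 of 21 genes passed the filter. Of these, 9 had positive and 8 had negative log2 fold changes, their median was 0.02, and none had an adjusted call. That median was -0.0079 with median-of-ratios scaling and 0.14 without Vehicle 2. In 2 of them all SRT1720 libraries lay above all Vehicle libraries, a share of 11.8% that is near the 12.1% of all genes tested. Pclaf, a PCNA-associated protein that UHRF1 ubiquitinates, was at 14.0, 22.1 and 18.8 TPM in SRT1720 1, 2 and 3, against 7.01, 5.09 and 13.6 TPM in Vehicle 1, 2 and 3. Lig1, the DNA ligase of lagging-strand synthesis that recruits UHRF1, was at 6.72, 6.96 and 6.89 TPM in SRT1720 1, 2 and 3, against 3.73, 4.35 and 6.26 TPM in Vehicle 1, 2 and 3. In both genes Vehicle 3 came closest to the SRT1720 libraries. Their log2 fold changes were 1.09 (SE 0.35) and 0.47 (SE 0.19), with limma adjusted p of 0.335 and 0.398. Ctcf, an insulator protein whose binding is sensitive to CpG methylation, was at 6.74 ± 1.92 TPM in SRT1720 libraries and 4.94 ± 1.09 TPM in Vehicle libraries, with overlapping groups. Cdca7, the zinc-finger partner that activates HELLS, is named after its values were seen, at 7.18 ± 1.23 TPM in SRT1720 libraries and 6.89 ± 1.99 TPM in Vehicle libraries. Dnmt3l, a germline cofactor of the enzymes of new methylation, did not exceed 0.0115 TPM in any library.

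In the methionine, S-adenosylmethionine and folate cycle, which supplies the methyl donor, 13 of the 17 genes past the filter (of 24 listed) had positive and 4 had negative log2 fold changes. Their median was 0.20, and none had an adjusted call. The groups did not overlap in 3 of them (17.6%), all higher with SRT1720, against 12.1% of all genes tested. Mat2a, the enzyme that makes S-adenosylmethionine outside the liver, was at 6.31, 11.1 and 11.7 TPM in SRT1720 1, 2 and 3, against 4.35, 5.63 and 4.59 TPM in Vehicle 1, 2 and 3. Its log2 fold change was 0.83 (SE 0.25, limma adjusted p of 0.317). Tyms, thymidylate synthase, was at 3.43 ± 0.97 TPM in SRT1720 libraries and 1.61 ± 0.43 TPM in Vehicle libraries, and the folate enzyme gene Shmt1 at 4.27 ± 0.57 TPM in SRT1720 libraries and 2.73 ± 0.33 TPM in Vehicle libraries. Ahcy, which clears the methyltransferase inhibitor S-adenosylhomocysteine and is also named after its values were seen, was at 22.2 to 30.4 TPM in SRT1720 libraries and 16.2 to 26.2 TPM in Vehicle libraries, with overlapping groups.

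In the list of base excision repair and deamination, which acts after TET enzymes or MBD4, 11 of 14 genes past the filter (of 17 listed) were above 0 and 3 below, with a median of 0.11 and no adjusted call. The median was 0.22 without SRT1720 3. The share higher without overlap was 7.14%, against 12.1% of all genes tested. Of the 14, 1 was lower without overlap, against 7.75% of all genes tested. Xrcc1, a scaffold of single-strand break repair, was higher without overlap, at 2.83 ± 0.48 TPM in SRT1720 libraries and 1.89 ± 0.14 TPM in Vehicle libraries. Gadd45b, a stress-induced gene linked to active demethylation, was lower without overlap, at 8.33, 4.24 and 4.85 TPM in SRT1720 1, 2 and 3, against 8.84, 20.5 and 12.6 TPM in Vehicle 1, 2 and 3. SRT1720 1 and Vehicle 1 were close to each other, and the log2 fold change was -1.11 (SE 0.35, limma adjusted p of 0.335). Its paralog Gadd45a overlapped between groups, at 0.706 to 7.74 TPM in SRT1720 libraries and 4.71 to 15.4 TPM in Vehicle libraries.

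All 15 genes of 2-oxoglutarate supply and TET inhibition, which bear on the cosubstrate of the TET enzymes, passed the filter, 10 above 0 and 5 below, with a median of 0.09, which was 0.047 without Vehicle 2. Sdhc, a membrane subunit of succinate dehydrogenase, was lower without overlap, at 11.7 ± 0.29 TPM in SRT1720 libraries and 13.5 ± 0.87 TPM in Vehicle libraries. It was the only gene of the 15 without overlap. Of all genes tested, 12.1% were higher without overlap and 7.75% lower. Idh3a and Idh2, both isocitrate dehydrogenase genes of mitochondria, were at 9.49 ± 1.90 and 9.39 ± 1.53 TPM in SRT1720 libraries, against 6.57 ± 0.89 and 12.6 ± 2.67 TPM in Vehicle libraries, with overlapping groups. Of 8 methyl-CpG readers, Zbtb33, Mbd3 and Mbd6 passed the filter, with log2 fold changes of 0.13, 0.26 and -0.04 and overlapping groups. Their median of 0.13 was 0.0083 without Vehicle 3, 0.069 without SRT1720 2 and 0.19 without SRT1720 1. None of these genes had an adjusted call.

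Germline genes, which CpG methylation keeps silent in somatic cells, and imprinted genes, whose expressed allele depends on CpG methylation, were mostly low. For an imprinted gene a higher level does not by itself mean less methylation. Of 26 such genes, 24 were below 1 TPM in every library and 5 were listed at 0 in all of them. The others were the imprinted genes Igf2r, at 7.32 to 11.5 TPM in SRT1720 libraries and 6.77 to 18.0 TPM in Vehicle libraries, and Grb10. Grb10 was at 3.67 TPM in SRT1720 1 and 5.48 TPM in Vehicle 2, the libraries low in Krt5, against 0.105 to 0.785 TPM in the other 4 libraries. The list summed to 9.47 to 17.9 TPM in SRT1720 libraries and 10.2 to 26.8 TPM in Vehicle libraries, so the groups overlapped. Most of this sum was Igf2r and Grb10, so it says little about the germline genes. The median log2 fold change of both genes was -0.18, and it turned to 0.063 without SRT1720 3 and to 0.35 without Vehicle 2, in a range from -0.61 (without Vehicle 3).

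The genes whose log2(TPM + 1) followed Uhrf1 most closely over the 6 libraries, among the 9286 others tested, were Ddx54, Map3k6, Ddx10, Skiv2l and Mif4gd, with Pearson r of 0.998, 0.996, 0.994, 0.991 and 0.989. Ddx54 was at 4.25, 4.54 and 4.90 TPM in SRT1720 1, 2 and 3, against 3.45, 3.28 and 3.45 TPM in Vehicle 1, 2 and 3, and so had the same order of SRT1720 libraries as Uhrf1. Of the other 5 measured members, Dnmt1 had r = 0.91 with Uhrf1 and rank 168 among these genes, Hells r = 0.74 and rank 983, Tet3 r = -0.31, Dnmt3a r = -0.41 and Uhrf2 r = -0.88. These coefficients describe 6 libraries that share the difference between groups, and with so few points high values arise for many genes.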

How the data were processed

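RNA sequencing values came from 1 deposited table with 51912 Ensembl gene IDs and a column for each of 6 libraries, which were grouped by their titles. The authors deposited values named TPM by the table, although its columns sum to between 161231 and 171577 and not to 1000000, so they were read as relative levels per gene length and library. The submitters' processing notes list STAR 2.6.0 and the GRCm38 build without saying how each was used. How reads were counted, which gene lengths and strand setting were used, and how reads with several matches were treated is not given in the sources used. GENCODE mouse release M21 named 51633 of the IDs.

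Values of each gene were multiples of 1 step per library, and whole reads were recovered for 27712 of 27713 IDs above 0 (within 0.01), as the smallest whole numbers in the observed ratios. They sum to 17854736 to 22312476 reads per library. They may understate genes of few reads and genes above 0 in few libraries. The 9287 genes that averaged 1 TPM or more over all 6 libraries were tested on log2(TPM + 1) by limma 3.58.1 under R 4.3.3, with eBayes given a mean trend, with Benjamini-Hochberg adjustment. Fold changes on this scale understate those of low genes. Single ratios used an exact permutation test. The fit and the recovery of reads were also run on simulated data, and no outcome of either is used here. In the simulated fit each gene varied independently of the others, unlike in these libraries. Near copies were sought with BLAST 2.17.0 among GENCODE transcripts, at no less than 90% identity over 200 bases.

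The 10 genes and the lists were chosen with earlier results of these data known. The rule for further names took the 3 genes of smallest p in each of 7 lists (both genes past the filter in the germline and imprinted list), the 5 genes most correlated with Uhrf1, and Krt5, Krt18, Rrm2 and Pcna. Gm5648, Dnmt3c, Cdca7, Dnmt3l, Ahcy, Lyz2, Ptprc, Cd68 and Fen1 are outside it and were named after their values were seen. Krt18 was at 226, 57.6 and 25.3 TPM in SRT1720 1, 2 and 3, against 48.0, 162 and 29.2 TPM in Vehicle 1, 2 and 3. Python 3.11.15 was used with scipy 1.17.1, pandas 2.3.3, matplotlib 3.10.9 and numpy 2.4.6.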

Additional observations from a re-analysis of the deposited data

How the results depend on the processing

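The number of genes with an adjusted call was 0 under every alternative tried, which were pseudocounts of 0.1 and 0.5, no filter, a filter at 5 TPM, median-of-ratios scaling, columns scaled to 1000000, no mean trend, library weights, voom on recovered reads, the replicate block, and libraries left out singly or in pairs. Over these, the log2 fold change was 0.62 to 0.83 for Uhrf1, -0.75 to -0.49 for Uhrf2, 0.32 to 0.45 for Dnmt1 and 0.47 to 0.72 for Hells. Leaving out single libraries gave -0.31 to 0.056 for Dnmt3a, -0.20 to 0.12 for Tet3 and -0.036 to 0.44 for the log2 ratio of Dnmt3b to Dnmt3a, and each changed sign without Vehicle 2. Genes at an unadjusted p under 0.05 numbered 2028 with no filter and 498 at 5 TPM, where 27713 and 3594 genes were tested. Tet3 was at 0.082 without both SRT1720 1 and Vehicle 2. Uhrf2, Dnmt3a and Tet3 have no value at 5 TPM. The median log2 fold change of the partners of the methyltransferases was 0.15 at 5 TPM and 0.13 without both SRT1720 1 and Vehicle 2, 0.0029 to 0.14 without single libraries, -0.0028 with no filter and -0.031 without both SRT1720 3 and Vehicle 3. The median of base excision repair was -1.11 at 5 TPM, where 3 genes were left. The median of the methionine and folate cycle was 0.34 with a pseudocount of 0.1, 0.36 with columns scaled to 1000000 and 0.33 without both SRT1720 3 and Vehicle 3, and in the last case that of the S phase genes was 0.64. Apart from fewer genes or libraries, the cause of these shifts was not tested.

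The correlation of deviations from the group means between same-numbered libraries was -0.20, -0.26 and 0.79 for replicates 1, 2 and 3. Only replicate 3 varied with its own number; SRT1720 1 correlated best with Vehicle 2 (0.72) and SRT1720 2 with Vehicle 1 (0.68), so the numbers were not taken as pairs. With the replicate block in limma, the adjusted p was 0.392 for Uhrf1 and Uhrf2, 0.393 for Hells and 0.457 for Dnmt1. It gave 1133 genes at an unadjusted p under 0.05 and 0 adjusted calls. This block joins libraries by number, which for replicates 1 and 2 is not how they resembled each other. Its values are therefore no check on the main fit. No fit joined the libraries that resembled each other, and what this would change was not tested. Depth limits Tet1 and Dnmt3b, with 2 to 220 reads behind each value.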

Other observations

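Fen1, the flap endonuclease of lagging-strand synthesis and a member of the S phase list, was at 0.0343 to 0.0570 TPM in SRT1720 libraries and 0.0305 to 0.0460 TPM in Vehicle libraries, while Pcna in the same list was at 17.3 TPM or more in every library. Dividing cells in general express Fen1. Whether its reads were lost in the authors' counting was not tested, so the value is not taken as its level.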
